A study of Mus musculus with 18 samples.

Results

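Transcript levels of 9 genes that set the balance between survival and death in beta cells were followed in pancreatic islets of 3 mouse genotypes. They are the Bcl2 family genes Bcl2, Bcl2l1, Mcl1, Bak1, Bcl2l11, Bid, Bad and Pmaip1, and Txnip, the gene of thioredoxin-interacting protein. They were chosen by name as apoptosis control genes of beta cells, and all 9 were found among the 54186 gene rows of the count table. The mice were on the FVB background and 6 weeks old, and whole islets of 6 mice per genotype were sequenced, with about 165 islets and 1 library per mouse. The hIAPP mice carried human islet amyloid polypeptide (IAPP), a beta cell hormone that is prone to aggregate in its human form, as a transgene under the insulin II promoter. The rIAPP mice carried the rodent form, which does not form amyloid, under the same promoter, and WT mice carried neither transgene. The promoter drives expression in beta cells, while the libraries hold the RNA of all islet cells, so that fewer cells of a type and less RNA per cell cannot be told apart.

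Bcl2 family proteins meet at the outer membrane of mitochondria. Guardians such as Bcl2, Bcl-xL (the product of Bcl2l1) and Mcl1 hold back the pore-forming proteins, of which Bak is one, and BH3-only proteins such as Bim (Bcl2l11), Bid, Bad and Noxa (Pmaip1) bind the guardians or activate the pore formers. Once pores open, cytochrome c leaves the mitochondria and starts the caspase cascade. Txnip binds and inhibits thioredoxin, is strongly induced by glucose in beta cells, and is known there as a mediator of glucose toxicity.

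All 9 genes had enough counts to be tested with the 20244 genes kept, in libraries of about 109596590 to 166233670 counts. A gene is said to have risen or fallen when its edgeR adjusted p was under 0.05. The islet identity of the libraries was plain from their markers, since all 8 beta cell markers were measured and their summed level was 123619.5 to 154744 CPM (counts scaled by library total, TMM-adjusted) in WT, 66664 to 123688 in hIAPP and 73041 to 100714 in rIAPP. These sums include Iapp, at a mean of 34206 CPM in WT, 25572 in hIAPP and 39144 in rIAPP. Whether transgene reads were counted to Iapp was not tested. Acinar markers of the exocrine pancreas were present in every library, with sums over 14 genes of 782 to 3135 CPM in WT, 1958 to 12809 in hIAPP and 3303 to 14329.9 in rIAPP. In hIAPP the 13 macrophage markers summed to 383 to 767 CPM, against 144 to 168 in WT and 97.1 to 113 in rIAPP. The macrophage sum was highest in hIAPP 5 and the acinar sum of hIAPP was highest in hIAPP 6. For the 9 genes, values without these libraries are given where a call changed. The calls of other named genes were not checked without them.

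The rodent transgene went with the most changes among the 9 genes. In rIAPP against WT, Bcl2, Bcl2l1, Bak1, Pmaip1 and Txnip rose and none fell, and the median of the 9 log2 fold changes was 0.36, beside -0.01 over all genes tested. At an unadjusted p under 0.05, the edgeR counts were again 5 higher and 0 lower, DESeq2 also called these 5, and limma-voom called 4 of them, without Pmaip1. In the same comparison 7 of 8 beta cell markers fell (median log2 fold change -1.14) and 6 of 8 stellate and mesenchymal markers rose (median 1.29), and their part in the results on the 9 genes was not tested. Of all genes tested in that comparison, 26.8% passed, 14.1% higher and 12.6% lower. Against WT, the hIAPP libraries showed 1 call, a rise of Pmaip1, at a background of 15.8% of all genes (8.31% higher and 7.53% lower). The median over the 9 genes was 0.14 beside -0.01 over all genes, and at an unadjusted p under 0.05 the edgeR counts were 3 higher and 0 lower. DESeq2 also called Pmaip1 alone, and limma-voom called Bcl2l11 in its place. Here 6 of 8 beta cell markers fell (median -0.43) and 6 of 8 stellate and mesenchymal markers rose (median 0.77), which was likewise not tested. In hIAPP against rIAPP, Bcl2 and Bcl2l1 were lower and Bcl2l11 was higher, 3 of 9 at a background of 27.6% (13.5% higher and 14.1% lower), with a median of -0.17 beside -8.50e-06 over all genes. Between the transgenes, 7 of 8 beta cell markers were higher in hIAPP and 1 was lower (median 0.75). Of 13 macrophage markers 12 were higher and 1 was lower (median 1.96). Stellate and mesenchymal markers were split, 2 of 8 higher and 2 lower (median -0.40). The part of these shifts was likewise not tested. The comparisons of each transgene with WT share the WT libraries, and the shares of 1 and 3 genes of 9 were near the background.

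**Figure D1:**
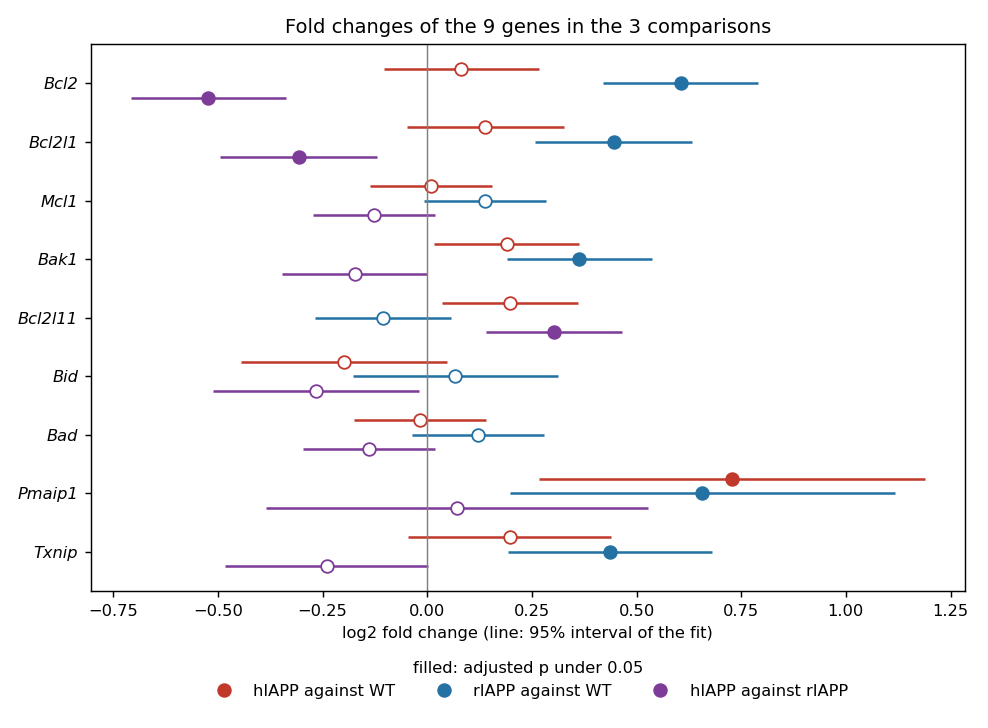
Log2 fold changes of the 9 genes (points) with the 95% interval of the edgeR fit (lines) in the 3 comparisons; filled points have an adjusted p under 0.05. In rIAPP against WT 5 points are filled and lie above 0, from Bak1 at 0.36 to Pmaip1 at 0.66, while in hIAPP against WT the filled point is Pmaip1 at 0.73.

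Per length of exon, the 9 genes spanned a wide range in WT islets, with Txnip at the top and Pmaip1 at the bottom. Txnip averaged 115 ± 8.06 CPM per kilobase (SD, n = 6), Mcl1 29.3 ± 2.77 and Bcl2l1 9.27 ± 0.566. The guardians Mcl1 and Bcl2l1 thus stood above all pro-apoptotic Bcl2 family genes of the set, while Bcl2 itself was at 1.02 ± 0.104. Among the pro-apoptotic Bcl2 family genes the WT order was Bad (4.45 ± 0.412), Bak1 (3.04 ± 0.307), Bcl2l11 (1.84 ± 0.260), Bid (1.18 ± 0.211) and Pmaip1 (0.420 ± 0.0381). Neighbours in this order had ranges over the 6 WT libraries that did not overlap, except Bid and Bcl2. In hIAPP, Bcl2 (1.08 ± 0.138) stood above Bid (1.03 ± 0.113), with overlapping ranges, and the range of Bid also overlapped that of Pmaip1. In rIAPP the ranges of Bad and Bak1, of Bcl2l11 and Bcl2, and of Bcl2 and Bid overlapped. Within all 3 genotypes, Txnip, Mcl1, Bcl2l1, Bad, Bak1 and Bcl2l11 kept ranks 1 to 6 and Pmaip1 rank 9.

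**Figure D2:**
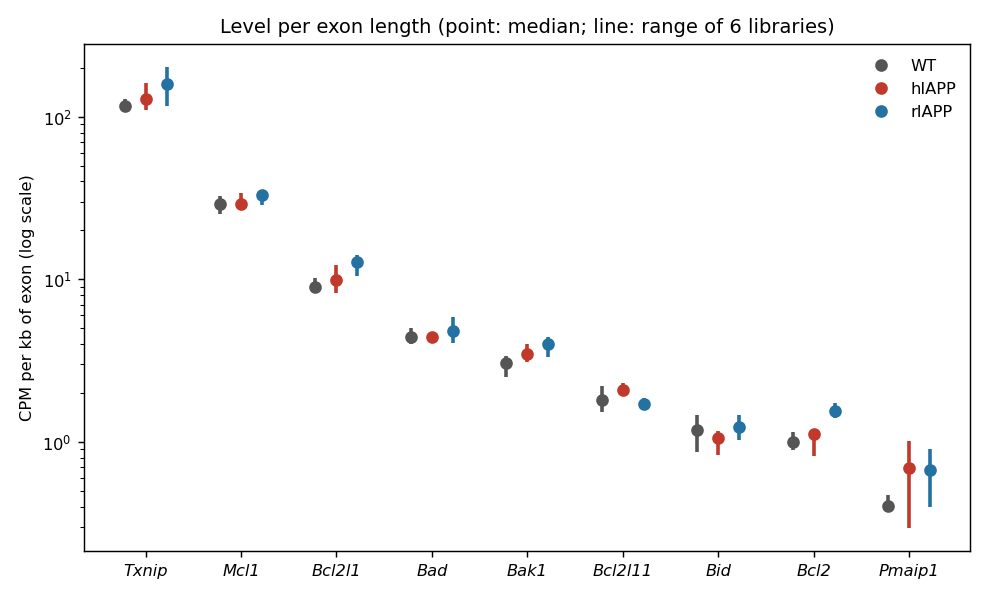
Level of each gene in CPM per kilobase of exon on a log scale, with the median (point) and the range (line) of the 6 libraries of each genotype. Txnip lies above 100 and Mcl1 between 25.2 and 35.7 in every library, and the hIAPP and rIAPP ranges of Pmaip1 are wider than the WT range.

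Among the guardians, Bcl2 (GRCm38 chromosome 1, 106538178 to 106714274, minus strand) set the rIAPP libraries apart. Its level was 8.18 CPM in the lowest WT library, 9.20 at the median and 10.5 in the highest. In hIAPP it was 7.51, 10.2 and 11.1 CPM. In rIAPP it was 12.8, 14.1 and 15.9 CPM. All 6 rIAPP libraries therefore lay above all WT and all hIAPP libraries, and WT and hIAPP overlapped. The log2 fold change of rIAPP against WT was 0.61 ± 0.09 (SE; edgeR adjusted p = 2.62e-05), and Bcl2 was lower in hIAPP than in rIAPP by -0.52 ± 0.09 (edgeR adjusted p = 1.41e-04). Its value in hIAPP against WT was 0.08, with a 95% interval of -0.10 to 0.27.

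Markers of blood vessels moved the same way as Bcl2 in both comparisons that include rIAPP. All 8 endothelial markers rose in rIAPP against WT, with a median log2 fold change of 0.37, and all 8 were lower in hIAPP than in rIAPP, with a median of -0.54. In hIAPP against WT, 3 of the 8 fell and none rose (median -0.16), while Bcl2 stood at 0.08. The summed level of the 8 markers was 646 to 734 CPM in WT, 575 to 661 in hIAPP and 807 to 906 in rIAPP, and none of the 8 was at 0 in any genotype. The part of endothelial RNA in the Bcl2 result was not tested. Over deviations from the genotype mean in the 18 libraries, the genes most like Bcl2 among 12830 compared were Ms4a4d (Pearson r = 0.88, Spearman rho = 0.82), Pls3 (0.86 and 0.86) and Prex2 (0.86 and 0.85). These likenesses are descriptions, since the genes were picked for the highest r and share the libraries and their scaling.

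Bcl2l1 (chromosome 2, 152780668 to 152831728, minus strand), which encodes the survival protein Bcl-xL, was also highest in rIAPP. It lay at 40.2, 41.2 and 46.5 CPM (lowest, median and highest) in WT. In hIAPP it was spread from 38.0 over 45.7 to 56.5 CPM, and in rIAPP it lay at 48.4, 58.4 and 65.1 CPM. No rIAPP library fell within the WT range, whereas the hIAPP libraries reached from below the WT range into the rIAPP range. Bcl2l1 rose in rIAPP against WT by 0.45 ± 0.09 (edgeR adjusted p = 7.50e-04) and was lower in hIAPP than in rIAPP by -0.31 ± 0.09 (edgeR adjusted p = 0.0139). In hIAPP against WT it stood at 0.14, with a 95% interval of -0.05 to 0.33. Its nearest genes by the same measure of likeness were Irgq (r = 0.85, rho = 0.81), Map6 (0.81 and 0.80) and Zbtb11os1 (0.81 and 0.80).

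Mcl1 (chromosome 3, 95658788 to 95663176, plus strand), a guardian whose protein turns over quickly, passed in none of the 3 comparisons. Its level was 86.2, 99.2 and 110.6 CPM in WT, 94.2, 99.7 and 116 in hIAPP and 97.3, 112 and 122 in rIAPP, and the 3 ranges overlapped. Its interval in hIAPP against WT was narrow, at -0.14 to 0.16 on the log2 scale. In rIAPP against WT it was 0.14, with an interval of -0.01 to 0.28.

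**Figure D3:**
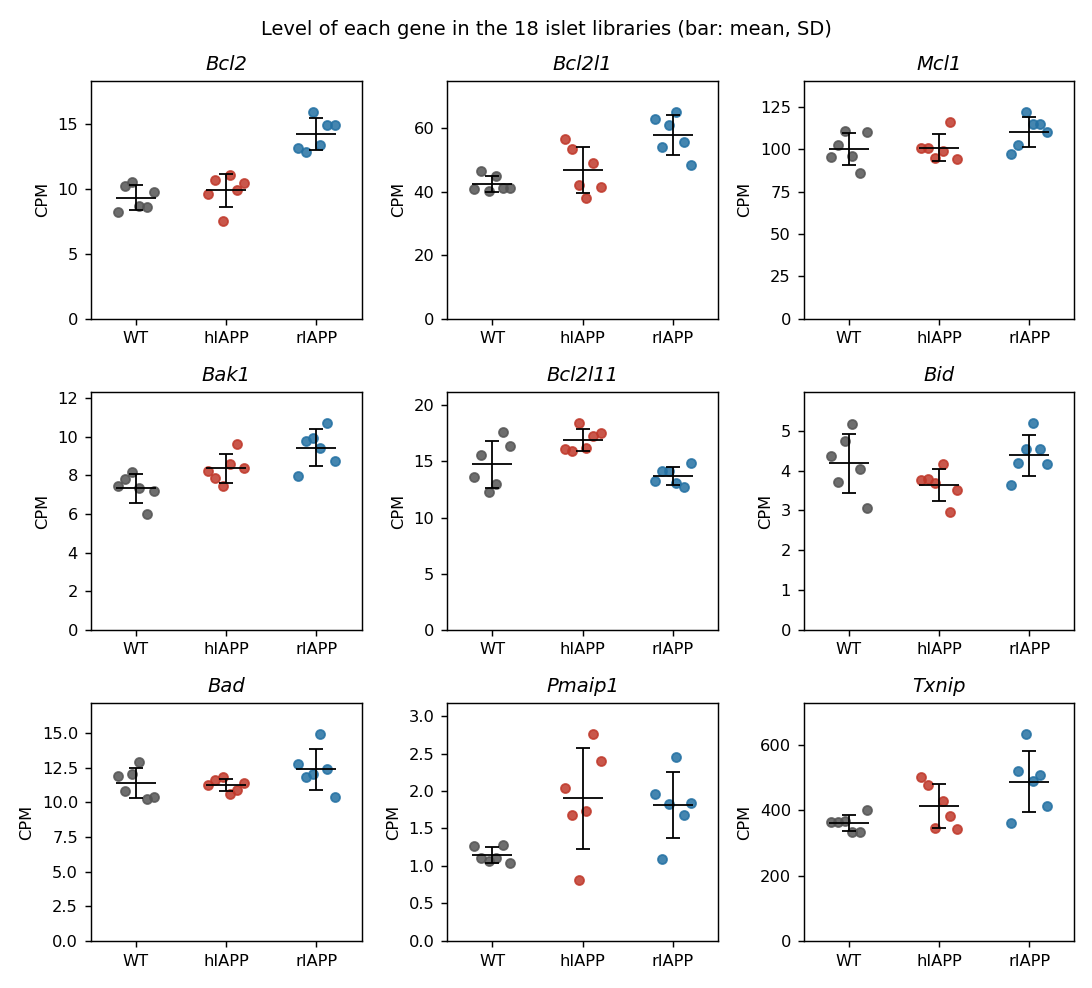
Level in CPM of each of the 9 genes in every library (points), by genotype, with the mean and SD (black); each vertical axis starts at 0. For Bcl2 and Bcl2l1 the 6 rIAPP libraries lie above all WT libraries, and for Bcl2l11 the 6 hIAPP libraries lie above all rIAPP libraries.

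Bak1 (chromosome 17, 27019810 to 27029009, minus strand) encodes a protein that forms the mitochondrial pore. Its level was 5.99, 7.41 and 8.16 CPM in WT, 7.45, 8.31 and 9.60 in hIAPP and 7.99, 9.61 and 10.7 in rIAPP. In rIAPP, 5 of 6 libraries exceeded every WT library, and in hIAPP 4 of 6 did. Bak1 rose in rIAPP against WT by 0.36 ± 0.08 (edgeR adjusted p = 0.00234). In hIAPP against WT it stood at 0.19 ± 0.08 (edgeR adjusted p = 0.134), and in hIAPP against rIAPP at -0.17 ± 0.08 (edgeR adjusted p = 0.132). With the acinar score as a covariate, the rIAPP value was 0.34 and did not pass (edgeR adjusted p = 0.119). All 14 acinar markers rose in rIAPP against WT. Their sums were 782 to 3135 CPM in WT and 3303 to 14329.9 CPM in rIAPP, without overlap. The covariate is thus tied to genotype in that comparison and cannot separate acinar RNA from genotype. The part of acinar RNA in the Bak1 and Pmaip1 results was not tested. The genes nearest to Bak1 were Pfn1 (r = 0.85, rho = 0.81), Kank2 (0.85 and 0.80) and Ostf1 (0.80 and 0.58).

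Bcl2l11 (chromosome 2, 128126038 to 128162547, plus strand) was 1 of 4 BH3-only genes, of 8 listed, that were higher in hIAPP than in rIAPP. Of all genes tested, 13.5% were higher in that comparison. Bcl2l11 encodes Bim, which binds all the guardians and can activate the pore formers. Its level was 15.9, 16.7 and 18.4 CPM in hIAPP and 12.7, 13.7 and 14.9 in rIAPP, with no overlap. WT libraries lay at 12.3, 14.6 and 17.6 CPM, across both ranges. Bcl2l11 was higher in hIAPP than in rIAPP by 0.30 ± 0.08 (edgeR adjusted p = 0.00578). Against WT it stood at 0.20 ± 0.08 in hIAPP (edgeR adjusted p = 0.0923) and at -0.11 ± 0.08 in rIAPP (edgeR adjusted p = 0.365). The value of hIAPP against WT passed without the library WT 5, which was the highest WT library (0.26, edgeR adjusted p = 0.0191).

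Pmaip1 (chromosome 18, 66458533 to 66465565, plus strand) encodes Noxa, which binds Mcl1, and was the least abundant of the 9 genes, with 112 to 389 counts per library. Its level was even among WT libraries, at 1.04, 1.11 and 1.28 CPM, and uneven among the transgenic ones, at 0.808, 1.89 and 2.76 in hIAPP and 1.09, 1.84 and 2.45 in rIAPP. In each transgenic genotype 5 of 6 libraries exceeded every WT library; hIAPP 3 lay below all WT libraries, and rIAPP 2 lay among them. Pmaip1 rose by 0.73 ± 0.22 in hIAPP against WT (edgeR adjusted p = 0.0294) and by 0.66 ± 0.22 in rIAPP against WT (edgeR adjusted p = 0.0314). The transgenic genotypes differed by 0.07, with a 95% interval of -0.38 to 0.53.

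Both Pmaip1 calls changed with the analysis. In hIAPP the highest libraries were hIAPP 5 and hIAPP 6, and without them the log2 fold change was 0.45 (edgeR adjusted p = 0.236). With the acinar score as a covariate the value was 0.67 in hIAPP (edgeR adjusted p = 0.283) and 0.59 in rIAPP (edgeR adjusted p = 0.362). With limma-voom it was 0.55 in hIAPP (limma adjusted p = 0.0888) and 0.53 in rIAPP (limma adjusted p = 0.0685). Leaving out WT 2, WT 3, WT 4, WT 6, hIAPP 5 or hIAPP 6 also ended the hIAPP call, at log2 values of 0.60 to 0.72 and edgeR adjusted p of 0.0540 to 0.0827. In rIAPP the call ended without WT 2, WT 3, WT 4, WT 6, rIAPP 1, rIAPP 3 or rIAPP 4, at values of 0.55 to 0.65 and edgeR adjusted p of 0.0517 to 0.0836.

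Bid and Bad passed in none of the comparisons. Bid (chromosome 6, 120891930 to 120916853, minus strand), whose protein links death receptors to mitochondria, lay at 3.05, 4.22 and 5.16 CPM in WT, 2.95, 3.73 and 4.17 in hIAPP and 3.65, 4.37 and 5.20 in rIAPP. Its values were -0.20 in hIAPP against WT (95% interval -0.44 to 0.05) and -0.27 in hIAPP against rIAPP (-0.51 to -0.02, edgeR adjusted p = 0.102). Bad (chromosome 19, 6941861 to 6951899, plus strand), whose protein is held inactive by survival kinases, lay at 10.2, 11.4 and 12.9 CPM in WT, 10.6, 11.3 and 11.8 in hIAPP and 10.4, 12.2 and 14.9 in rIAPP. Its values were -0.02 in hIAPP against WT (-0.18 to 0.14) and 0.12 in rIAPP against WT (-0.04 to 0.28). For both genes the ranges of all 3 genotypes overlapped.

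Several of the genes overlap a gene on the opposite strand, and the strand setting of the counts is not given in the sources used here. Bid shares 628 exon bases with Bcl2l13, which was far more abundant (32.2 CPM in WT, 31.3 in hIAPP and 27.3 in rIAPP) and fell in rIAPP against WT by 0.23 in log2 units (edgeR adjusted p = 6.27e-04). Bad shares 524 exon bases with Gpr137 (13.3 to 14.1 CPM), and Bak1 up to 437 with Ggnbp1 (1.76 to 2.66 CPM), which rose in hIAPP against WT by 0.50 (edgeR adjusted p = 0.00822). Txnip shares 606 with Gm15441, which averaged 1.05 CPM in hIAPP and 1.17 in rIAPP, a small fraction of the Txnip level. If strand was not used, reads from the shared bases cannot be assigned to either partner.

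Txnip (chromosome 3, 96557957 to 96561883, plus strand) was high in all libraries and rose in rIAPP. Its level was 332, 364 and 400.1 CPM in WT, 344, 404 and 503 in hIAPP and 362, 498 and 632 in rIAPP. The rIAPP libraries lay above every WT library in 5 of 6 cases, with rIAPP 1 inside the WT range, and 3 of 6 hIAPP libraries lay above it. Txnip rose in rIAPP against WT by 0.44 ± 0.12 (edgeR adjusted p = 0.00770). In hIAPP against WT it stood at 0.20 ± 0.12 (95% interval -0.05 to 0.44, edgeR adjusted p = 0.287). In hIAPP against rIAPP it stood at -0.24 ± 0.12 (edgeR adjusted p = 0.138) and passed when rIAPP 1 was left out (-0.31, edgeR adjusted p = 0.0378). With the acinar score as a covariate the rIAPP value against WT was 0.74 (edgeR adjusted p = 0.00451), and the value of hIAPP against rIAPP was -0.32 and passed (edgeR adjusted p = 0.0341).

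The arrestin-domain gene Arrdc4, a relative of Txnip and like it a known target of the glucose-sensing factors ChREBP (Mlxipl) and MondoA (Mlxip), was also highest in rIAPP. Arrdc4 lay at 12.3, 13.8 and 15.4 CPM in WT, 11.5, 15.4 and 18.7 in hIAPP and 16.0, 18.7 and 23.2 in rIAPP, so that all rIAPP libraries exceeded all WT libraries. It rose in rIAPP against WT by 0.47 ± 0.11 (edgeR adjusted p = 0.00341) and was lower in hIAPP than in rIAPP by -0.33 ± 0.11 (edgeR adjusted p = 0.0337). The factor gene Mlxipl fell in rIAPP against WT by 0.60 in log2 units (edgeR adjusted p = 0.00122), from 147 ± 36.0 to 96.8 ± 15.4 CPM (SD, n = 6). Beta cell genes fell in the same comparison, among them Mafa by 2.62, Slc2a2 by 1.86, Ins1 by 1.21 and Pdx1 by 1.07 in log2 units, and their part in the Mlxipl value was not tested. Mlxip rose in hIAPP against WT by 0.41 (edgeR adjusted p = 0.0223), with 19.8 to 32.9 CPM in WT and 28.6 to 36.5 in hIAPP, and stood at 0.01 in rIAPP against WT (edgeR adjusted p = 0.977).

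**Figure D4:**
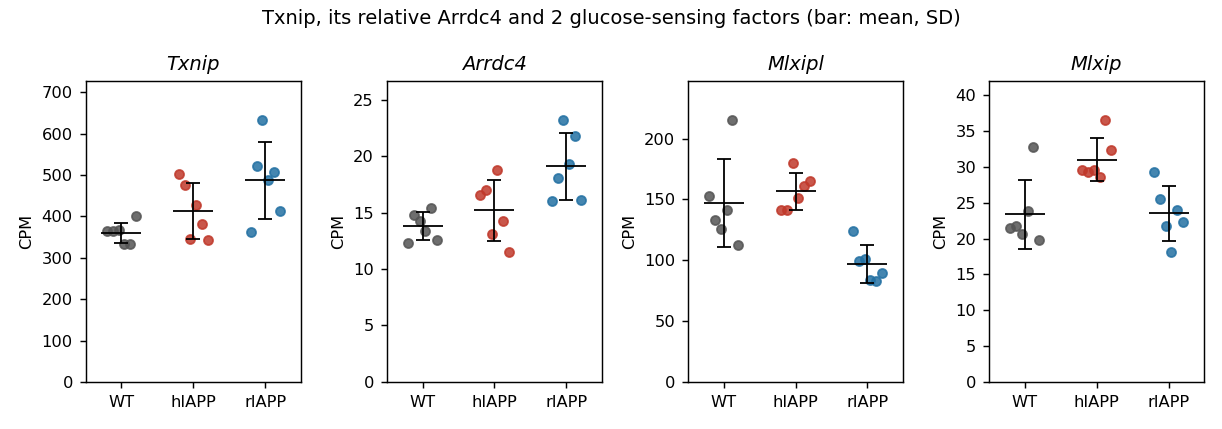
Levels in CPM of Txnip, Arrdc4, Mlxipl and Mlxip in every library (points), by genotype, with mean and SD (black); axes start at 0. The means of Txnip and Arrdc4 are highest in rIAPP, while the mean of Mlxipl is lowest there and that of Mlxip is highest in hIAPP. For each gene the libraries of some genotypes overlap.

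Because Txnip and Arrdc4 rose together, the 250 bases before their start sites are shown, 5′ to 3′ on the gene's strand, from RefSeq on GRCm38.p6 (chr3:96557707-96557956, plus strand, and chr7:68749239-68749488, minus strand). Capitals mark each match to CACGNG, the half-site of the carbohydrate response element bound by ChREBP and MondoA, searched on both strands.

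Txnip: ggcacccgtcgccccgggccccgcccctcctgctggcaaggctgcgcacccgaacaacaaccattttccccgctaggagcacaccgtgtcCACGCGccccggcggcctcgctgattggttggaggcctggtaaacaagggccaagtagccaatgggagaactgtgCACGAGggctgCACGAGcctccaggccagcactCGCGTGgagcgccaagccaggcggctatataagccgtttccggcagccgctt

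Arrdc4: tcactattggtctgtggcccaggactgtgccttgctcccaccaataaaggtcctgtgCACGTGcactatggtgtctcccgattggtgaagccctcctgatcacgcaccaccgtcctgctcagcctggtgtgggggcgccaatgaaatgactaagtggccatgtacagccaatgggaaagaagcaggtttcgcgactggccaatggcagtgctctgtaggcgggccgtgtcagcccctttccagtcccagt

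The Txnip window held 4 matches to CACGNG, of which the pair starting at -85 and -74 from the start site forms 2 copies of CACGNG set 5 bases apart. Over 32851 promoter windows of the same length, 23.5% held CACGNG on either strand and 15 windows, 0.0457%, held the pair. The pair was searched as in Txnip, with both copies in the same direction, on either strand. Pairs with the second copy reversed were not searched, so the share does not cover every arrangement of the half-sites. Arrdc4 held 1 match, at -193, which is CACGTG, an E-box that 6.02% of windows held; every CACGTG is also a match to CACGNG. Among the 8 genes of the set that were looked up (Pmaip1 was not), Bcl2l1 and Bcl2l11 each had 1 match to CACGNG in 1 of their windows and Bid had 2, and none of these 3 genes had the pair. A match describes the letters only and shows no binding.

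The remaining genes of the same pathways were read from lists of 48 further genes, 46 of which were tested. Against WT, 6 of them rose in hIAPP and 3 fell there, with a median log2 fold change of 0.08. In hIAPP against rIAPP 10 were higher and 5 lower (median 0.03), and in rIAPP against WT 5 rose and 5 fell (median 0.02). Over all genes tested, the medians were -0.01, -8.50e-06 and -0.01, and 15.8%, 27.6% and 26.8% of genes passed, so that the shares called among these pathway genes were near or under the background.

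The list of 8 BH3-only genes, which includes 4 of the genes described above, held 4 that rose in hIAPP against WT and 4 that did not pass, with a median log2 fold change of 0.34, where 8.31% of all genes rose. Pmaip1, whose call changed with the analysis, is among those that rose. Of the 4 others on the list, 3 rose. Bmf and Hrk of these are described here, and the other is not reported here. Bmf, whose protein is tied to the cytoskeleton until released, rose from 5.13 ± 0.622 CPM in WT to 7.13 ± 0.320 in hIAPP (SD, n = 6; log2 0.47 ± 0.08, edgeR adjusted p = 2.60e-04). Bmf also rose in rIAPP against WT (0.60 ± 0.08, edgeR adjusted p = 4.57e-06), and for both transgenes all libraries lay above all WT libraries. Hrk, a BH3-only gene known mainly from neurons, rose in hIAPP against WT by 1.39 ± 0.36 (edgeR adjusted p = 0.0115) from a low level of 0.183 ± 0.0588 CPM, with hIAPP 6 highest at 1.06 CPM and the other hIAPP libraries at 0.292 to 0.490. Bik fell in rIAPP against WT by 0.72 in log2 units (edgeR adjusted p = 0.00439). In that comparison 2 of the 8 BH3-only genes rose, Bmf and Pmaip1, at a background of 14.1% of all genes. Between the transgenes, 4 of the 8 were higher in hIAPP, at a background of 13.5% of all genes. Among these 4 were Bcl2l11, Hrk (1.14 ± 0.35, edgeR adjusted p = 0.0197) and Bik (0.80 ± 0.18, edgeR adjusted p = 0.00182). The other of these 4 is not reported here.

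Among the other guardians, Bcl2a1b, whose product protects white blood cells, rose in hIAPP against WT by 2.16 ± 0.19 (edgeR adjusted p = 3.64e-07), from 0.795 ± 0.0710 to 3.55 ± 1.25 CPM. Its highest value, 5.92 CPM, was in hIAPP 5, which also had the highest summed macrophage markers (767 CPM); 12 of 13 macrophage markers rose in hIAPP against WT. The part of macrophage RNA in the Bcl2a1b level was not tested, and Bcl2a1b has near-identical copies between which reads can be split. Bcl2l2, the gene of the guardian Bcl-w, was higher in hIAPP than in rIAPP by 0.18 ± 0.05 (edgeR adjusted p = 0.0121) and did not pass against WT in either genotype. The pore-forming relative Bok fell in rIAPP against WT by 0.52 in log2 units (edgeR adjusted p = 0.0195).

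Further genes act downstream of the mitochondria. Cycs, the gene of cytochrome c, fell in hIAPP against WT by 0.26 in log2 units (edgeR adjusted p = 0.0188), from 26.5 ± 2.91 to 22.1 ± 1.95 CPM, and was the 1 gene called of 8 in the list of apoptosome and caspase genes. In hIAPP against rIAPP, 3 of those 8 were lower, Cycs among them (-0.36 ± 0.07, edgeR adjusted p = 8.73e-04), and Casp9, the initiator caspase of the apoptosome, was higher (0.32 ± 0.06, edgeR adjusted p = 6.75e-04). Against WT, Casp9 did not pass in hIAPP (0.13, edgeR adjusted p = 0.192) and was lower in rIAPP (-0.19, edgeR adjusted p = 0.0281). Of the 8 inhibitors of apoptosis and their antagonists, 2 passed in rIAPP against WT, near the background of 26.8% of all genes. Htra2 rose by 0.32 (edgeR adjusted p = 0.00117) and Xiap fell by 0.19 (edgeR adjusted p = 0.0132). In the thioredoxin list, Txnrd3 fell in hIAPP against WT by 0.35 (edgeR adjusted p = 0.0462) and Txnip was the 1 of 6 genes called in rIAPP against WT. Of all genes tested, 15.8% passed in hIAPP against WT and 27.6% in hIAPP against rIAPP.

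**Figure D5:**
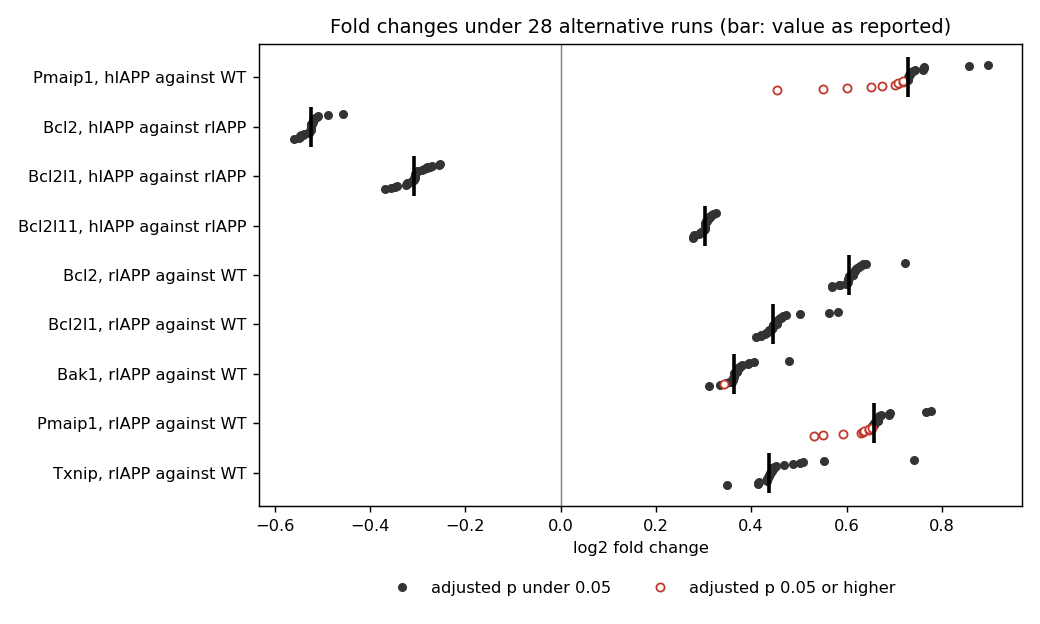
Log2 fold changes of the 9 called results under 28 alternative runs each (points), with the value as reported (black bar); open points did not pass in that run. The points of Bcl2, Bcl2l1, Bcl2l11 and Txnip are all filled, while open points appear for Pmaip1 in both comparisons with WT and for Bak1.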

How the data were processed

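Islet RNA was sequenced after Ribo-Zero depletion, per the labels' protocols. The deposited values are estimated counts per gene symbol, not normalised; STAR, HTSeq, GRCm38 and mm10 are named in the submitters' processing notes without versions, while no source used here gives the annotation, strand setting or the step behind the fractions. Counts were rounded to whole numbers (39.2% of values above 0 were not whole, at no tolerance). Replicates are separate mice, numbered in accession order. edgeR 4.0.16 in R 4.3.3 was run with TMM factors, filterByExpr by genotype and quasi-likelihood dispersion estimated over 18 libraries, two-sided, with Benjamini-Hochberg adjustment over all 20244 genes. CPM used TMM-scaled library totals, log2 CPM a prior count of 2, and exon lengths and positions came from GENCODE M21. Standard errors and 95% intervals came from the fit and cover the spread between mice. Alternatives were DESeq2 1.42.0, limma-voom (limma 3.58.1), other scalings and filters, an acinar covariate and left-out libraries. The pipeline was tested on simulated data. Figures used matplotlib 3.10.9.

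The members and gene lists were chosen with earlier results of these data known. Named were all 9 members, up to 4 called genes per list and comparison with the smallest p (all called genes of lists of 5 or fewer), and for the 3 members with the smallest p the 3 genes with the highest within-genotype Pearson r at a mean of at least 1 CPM, clone and pseudogene names left out. A few genes covered by this rule are left out.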

Additional observations from a re-analysis of the deposited data

Results flagged for a closer look

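Single libraries stood apart within their genotype for 2 of the 27 gene and genotype groups checked, at a rate where chance flags about 1 in 20 groups. The Bcl2 level of hIAPP 3 was 7.51 CPM, below the other hIAPP libraries at 9.58 to 11.1 CPM. The Mcl1 level of hIAPP 5 was 116 CPM, above the other hIAPP libraries at 94.2 to 100.9 CPM.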

How the results depend on the processing

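Over 28 alternatives, 6 of the 9 called member results kept their call and direction in every run: Bcl2 and Bcl2l1 in rIAPP against WT and in hIAPP against rIAPP, Bcl2l11 in hIAPP against rIAPP and Txnip in rIAPP against WT, with a highest adjusted p of 0.0490. Both Pmaip1 calls and the Bak1 call were lost in some runs and kept their direction. In hIAPP against WT, the number of members called was 4 with library totals alone, 0 with the acinar score as a covariate (2 at an unadjusted p under 0.05), 0 without hIAPP 5 and hIAPP 6 together (1 at an unadjusted p under 0.05), and 0 to 2 when each library was left out. In hIAPP against rIAPP it was 3 to 4 and in rIAPP against WT 4 to 5 in those single-library runs, and in rIAPP against WT 7 with library totals alone (Mcl1 and Bad added) and 3 with the acinar covariate; the cause was not tested. Library totals alone moved the median of all genes by 0.12 in both comparisons with WT and the share of higher calls from 52.5% to 86.7% (hIAPP) and from 52.8% to 76.4% (rIAPP). With the acinar covariate, 771 genes passed in hIAPP against WT and 2086 in rIAPP against WT, against 3208 and 5417; without hIAPP 5 and hIAPP 6, 1675 passed in hIAPP against WT.

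Values that turned direction belonged to results that did not pass in either run. Mcl1 in hIAPP against WT turned to -0.013 with limma-voom and to -0.014 without hIAPP 5 and hIAPP 6, and ranged from -0.030 to 0.040 when each library was left out (below 0 without WT 1, WT 4, WT 5 or hIAPP 5). Bad in hIAPP against WT turned to 0.095 with library totals alone and ranged from -0.047 to 0.021 in the single-library runs (above 0 without WT 4 or hIAPP 4). Pmaip1 in hIAPP against rIAPP turned to -0.21 without hIAPP 5 and hIAPP 6 and ranged from -0.066 to 0.23 (below 0 without hIAPP 5, hIAPP 6 or rIAPP 2). Bcl2l11 in rIAPP against WT turned to 0.014 with library totals alone, and Bid in rIAPP against WT ranged from -0.0086 to 0.14 (below 0 without WT 6). No paired analysis was possible because the labels give no number that the genotypes share.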

Other observations

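The spread of Pmaip1 differed between genotypes in size: its coefficient of variation was 9.08% in WT, 35.4% in hIAPP and 24.4% in rIAPP, while that of Bad was 9.26%, 4.02% and 12.0%. The library WT 5, singled out after its values were seen, had the lowest Mcl1 (86.2 CPM), Bak1 (5.99 CPM) and Bad (10.2 CPM) and the highest Bcl2l11 (17.6 CPM) of the WT libraries, and also the highest Mlxipl (215 CPM) and Mlxip (32.9 CPM). The 15 promoter windows that hold the pair of half-sites of the Txnip promoter belong to 14 gene symbols, which include Fnip1, Fem1b, Nfkb2, Man2b2 and Rbbp4.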
